A study of Mus musculus with 16 samples.

Results

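Astrocytes of the mouse striatum were followed through 35 genes, 14 that astrocytes raise when they become reactive and 21 that mark astrocytes in general, out of 24421 genes counted. The genes were taken by name from a list of the known markers of each state. RNA had been sequenced from the striatum of 16 mice aged 13 months, with 4 mice in each of 4 groups named by genotype and then by virus. Con+Foxp2 mice were of the control genotype and received a virus that overexpresses Foxp2, which encodes a forkhead transcription factor of striatal projection neurons, and Con+Con mice of the same genotype received the control virus. BACHD+Foxp2 mice and BACHD+Con mice received those viruses on the BACHD background, a model of Huntington disease in which a bacterial artificial chromosome expresses mutant human huntingtin from the human gene's own regulatory sequence. All 16 mice had thus been injected with a virus, and uninjected striatum was not analysed here. The type of virus, the site and dose of injection, the time to harvest and the cells that the virus reached are facts not given in the sources used here.

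Astrocytes clear glutamate and potassium from around synapses, supply neurons with metabolites, and are joined to each other by gap junctions. After injury, infection or disease they can become reactive, a state in which the intermediate filament proteins GFAP and vimentin accumulate and secreted and receptor genes can be switched on. In mice, cytokines of the interleukin-6 family acting through STAT3 are a known route to that state. Striatal astrocytes are known to hold little GFAP at rest compared with those of the hippocampus, and astrocytes of Huntington disease models have been studied for loss of glutamate and potassium handling.

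The libraries held 2660395 to 3669748 reads assigned to genes, and values are given in CPM, reads scaled to a common total after adjustment of library sizes. Foxp2 itself, which checks the virus labels, was at 3820, 4390, 4350 and 3500 CPM in the Con+Foxp2 mice and 98.5, 150, 93.2 and 130 CPM in the Con+Con mice. In the BACHD+Foxp2 mice Foxp2 was at 1730, 1290, 1430 and 1930 CPM, against 87.3, 129, 153 and 105 CPM in the BACHD+Con mice. The Foxp2 groups of the control and BACHD genotypes therefore did not share a level of Foxp2, and no comparison of the virus between genotypes was made at a matched level. Markers of choroid plexus and ependyma (9 genes) summed to 124 to 10720 CPM per library, with BACHD+Con mouse 2, Con+Con mouse 1 and BACHD+Foxp2 mouse 3 highest, and markers of cortical excitatory neurons (15 genes) to 428 to 2027 CPM, so the libraries differed in markers of neighbouring tissue. Nothing in the labels gives a batch, and separate mice are stated only as 4 per group. RNA of whole tissue was measured, so more astrocytes and more RNA per astrocyte cannot be told apart in any result that follows.

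The general markers, which are the check that the tissue held astrocytes, had reads in every library. The glutamate transporter gene Slc1a2 had the highest level among the members when CPM was divided by exon length, at 447 CPM per kb over all 16 mice. It was followed by Clu, which encodes the secreted chaperone clusterin, at 179 CPM per kb, by the glutamine synthetase gene Glul at 130, by the glycolytic enzyme gene Aldoc at 114 and by Ndrg2 at 108. Gfap was next after Atp1b2 (85.1) on this scale, at 82.6 CPM per kb, above Slc1a3, the second glial glutamate transporter, at 61.8, and above the water channel gene Aqp4 at 23.3. The other reactive genes were lower than Gfap, with Serpina3n at 26.5, Vim at 11.5, Cp at 2.44, Cd44 at 1.95, S1pr3 at 1.68, Osmr at 0.718, Aspg at 0.67 and Fbln5 at 0.518 CPM per kb. Slc1a2 alone made up 53.5% to 62.3% of the summed CPM of the 21 general markers, so that sum mostly follows Slc1a2.

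A filter on low counts left 13563 genes for testing, among them all 21 general markers and 9 of the 14 reactive genes. Of the 5 reactive genes below it, Lcn2, Steap4, Cxcl10 and Cd14 were near the limit of detection. There 3 reads in a library correspond to 0.819 to 1.16 CPM. Timp1 averaged 2.49 CPM, beside 2.36 CPM for the tested gene Aspg. It reached the 3.32 CPM that the filter asks for in 3 libraries, where 4 are needed. Lcn2, which encodes the secreted protein lipocalin-2 and is among the most strongly induced genes of reactive astrocytes, had 8 reads over the 4 Con+Foxp2 mice and 0 over the Con+Con mice. In the BACHD+Foxp2 mice Lcn2 had 9 reads, all in mice 2 and 3, against 1 read over the BACHD+Con mice. Cxcl10, a chemokine gene, had 3 reads in a single Con+Foxp2 library and 0 in all the other libraries. Timp1, an inhibitor of metalloproteinases, had 25 reads over the Con+Foxp2 mice and 21 over the Con+Con mice, and 47 over the BACHD+Foxp2 mice and 28 over the BACHD+Con mice. Steap4, a metalloreductase gene, had 5 reads and 14 reads in the Con+Foxp2 and Con+Con groups, the 14 all in Con+Con mouse 1, and 4 and 3 reads in the BACHD+Foxp2 and BACHD+Con groups. Cd14, a coreceptor for bacterial lipopolysaccharide that microglia also express, had 13 reads in Con+Foxp2 and 8 in Con+Con, and 12 in BACHD+Foxp2 and 8 in BACHD+Con. None of these 5 genes was tested, and their counts are given as a description.

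The question the design puts to these genes is whether delivery of Foxp2 moved them, in control mice, in BACHD mice and on average over both genotypes. Gfap, the intermediate filament gene of astrocytes (chromosome 11, 102887336 to 102900912, GRCm38, minus strand), showed the largest change among the called members. Its level was 335, 538, 412 and 422 CPM in the Con+Foxp2 mice and 279, 248, 221 and 283 CPM in the Con+Con mice. It was 541, 323, 538 and 604 CPM in the BACHD+Foxp2 mice and 220, 303, 139 and 168 CPM in the BACHD+Con mice. Every mouse given Foxp2 lay above every mouse given the control virus within its genotype, with the narrowest gap between BACHD+Foxp2 mouse 2 and BACHD+Con mouse 2. Averaged over genotypes, Gfap rose 2.0-fold, a log2 fold change of 1.00 ± 0.14 (SE, 95% interval 0.71 to 1.29, edgeR quasi-likelihood test, Benjamini-Hochberg adjusted p = 0.000269).

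By genotype, Gfap averaged 501 ± 123 CPM in BACHD+Foxp2 and 207 ± 71.9 CPM in BACHD+Con mice (SD, n = 4 each), a log2 fold change of 1.27 ± 0.20 (SE) that passed the threshold (edgeR, adjusted p = 0.00326). It averaged 427 ± 83.9 CPM in Con+Foxp2 and 258 ± 29.2 CPM in Con+Con mice, a log2 fold change of 0.73 ± 0.20 (SE) that did not (edgeR, unadjusted p = 0.00129, adjusted p = 0.182). That miss depends on the method: the adjusted p was 0.0455 with DESeq2, 0.0281 when only these groups were fitted and 0.0137 without the filter on low counts. The authors' deposited table gives Gfap a log2 fold change of 0.64 and an adjusted p of 0.000329 in control mice, and their table for BACHD mice gives 0.80 and 0.0127. DESeq2 run here gave log2 fold changes of 0.73 in control mice and 1.28 in BACHD mice. How the authors' estimates were scaled was not checked, so their sizes are not compared with those given here. An exact two-sided permutation test of log2 CPM gave p = 0.0286 in each genotype, the smallest that 4 mice against 4 allow, and 0.0286 after adjustment over both tests. That p was fixed by the lack of overlap given above, so it adds nothing to it. In control mice 2.71% of all genes lay higher and 2.29% lower without overlap. The shares in BACHD mice were 1.78% and 2.36%. The larger difference in BACHD mice was not shown to differ from that in control mice (edgeR interaction, log2 difference 0.54 ± 0.28, 95% interval -0.04 to 1.12, unadjusted p = 0.0646, adjusted p = 1.0).

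**Figure D1:**
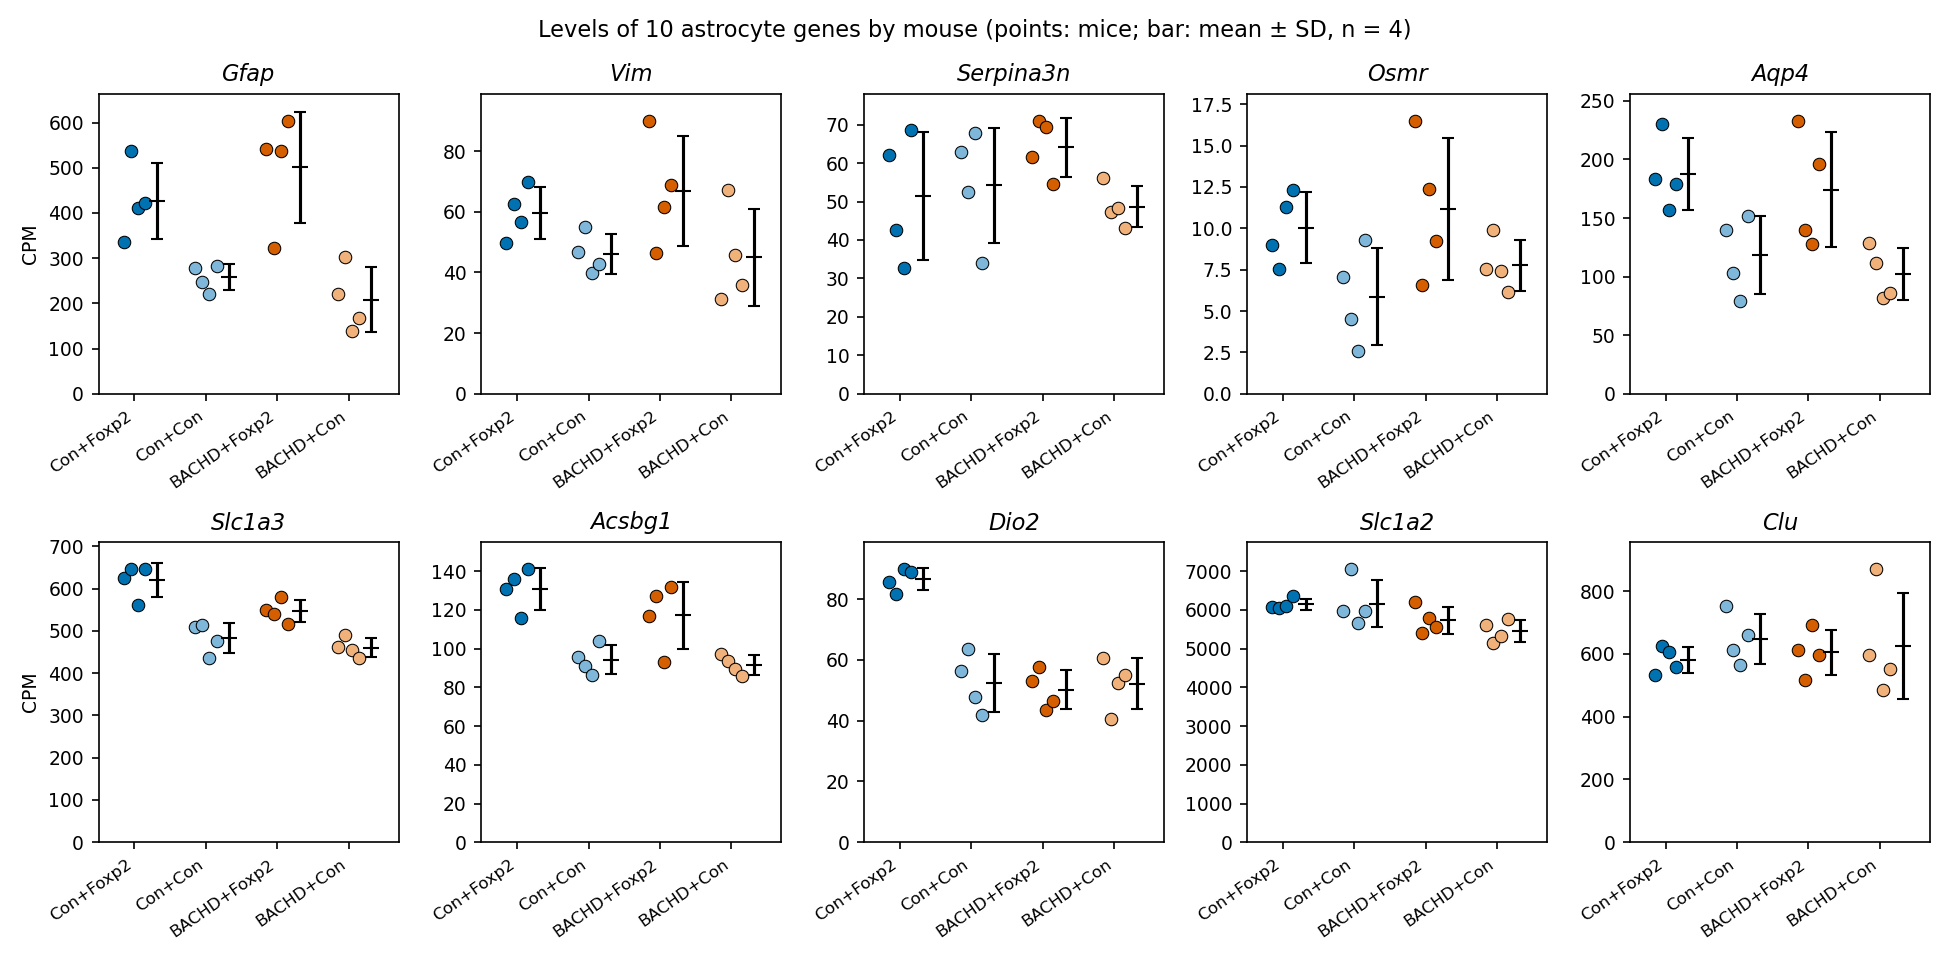
CPM of 10 astrocyte genes (vertical axes, linear and starting at 0), with 1 point per mouse and the mean ± SD of 4 mice beside each of the 4 groups. Gfap lies at 335 to 538 CPM in Con+Foxp2 against 221 to 283 CPM in Con+Con, and at 323 to 604 CPM in BACHD+Foxp2 against 139 to 303 CPM in BACHD+Con; Dio2 lies at 81.8 to 89.8 CPM in Con+Foxp2 and at 63.7 CPM or less in the other groups, and in Slc1a2 and Clu the viruses overlap within each genotype.

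The other structural gene, Vim, which encodes vimentin (chromosome 2, 13573927 to 13582826, plus strand), had positive estimates that did not pass the test. Vim was at 49.6, 62.5, 56.7 and 69.9 CPM in the Con+Foxp2 mice and 46.6, 55, 39.9 and 42.8 CPM in the Con+Con mice. In the BACHD+Foxp2 mice it was at 90.0, 46.5, 61.6 and 68.9 CPM, against 31.3, 67.1, 45.7 and 35.8 CPM in the BACHD+Con mice. The groups overlapped in both genotypes, in BACHD mice through BACHD+Con mouse 2. Averaged over genotypes the log2 fold change of Vim was 0.47 ± 0.15 (SE; edgeR, unadjusted p = 0.00593, adjusted p = 0.200). Without BACHD+Con mouse 2 alone it was 0.60 with an adjusted p of 0.0415 (edgeR), the 1 of 24 alternative fits in which Vim passed. That library was also the highest of all 16 in choroid plexus and ependymal markers. Without the 3 libraries highest in those markers Vim stood at 0.62 and did not pass (edgeR, adjusted p = 0.0715). Without the 3 lowest in cortical markers it stood at 0.67 (edgeR, adjusted p = 0.0753). Both sets include BACHD+Con mouse 2. Vim is expressed by ependymal, endothelial and perivascular cells as well as by astrocytes, and their part in its values was not tested.

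Serpina3n, a secreted protease inhibitor gene used as a general sign of astrocyte reactivity in mice, did not separate the groups. It had 62.1, 42.5, 32.8 and 68.5 CPM in the Con+Foxp2 mice and 62.8, 52.4, 67.8 and 33.9 CPM in the Con+Con mice. In the BACHD+Foxp2 mice it had 61.5, 71.0, 69.5 and 54.5 CPM, against 56.0, 47.2, 48.4 and 43.2 CPM in the BACHD+Con mice. Control mice of either virus covered the same range, and in BACHD mice only the lowest Foxp2 mouse fell below the highest mouse of the control virus. The averaged log2 fold change of Serpina3n was 0.16 ± 0.15 (SE, 95% interval -0.16 to 0.48; edgeR, adjusted p = 0.787). Serpina3n belongs to a cluster of closely related genes, so reads shared with them would not have been counted uniquely.

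Among the receptors, Osmr, the receptor subunit for oncostatin M, had 9.02, 7.53, 11.3 and 12.3 CPM in the Con+Foxp2 mice and 7.08, 4.50, 2.57 and 9.30 CPM in the Con+Con mice. It had 16.5, 6.55, 12.4 and 9.25 CPM in the BACHD+Foxp2 mice and 7.56, 9.91, 7.39 and 6.17 CPM in the BACHD+Con mice. These levels rest on 8 to 45 reads per library and overlap in both genotypes. The averaged log2 fold change of Osmr was 0.65 ± 0.28 (SE; edgeR, unadjusted p = 0.0305, adjusted p = 0.392). Cd44, the hyaluronan receptor gene, had an averaged log2 fold change of 0.26 ± 0.29 (SE), and S1pr3, a receptor gene for sphingosine 1-phosphate, one of -0.09 ± 0.29. Of the remaining reactive genes, the asparaginase gene Aspg had an estimate of 1.22 ± 0.56 (SE; edgeR, unadjusted p = 0.0387, adjusted p = 0.42), on 0 to 20 reads per library. Aspg passed the filter, which asks for 3.32 CPM in 4 libraries, through 4 Foxp2 libraries and 0 libraries of the control virus, so only a higher level with Foxp2 let it be tested, and its estimate is a description. Cp, which encodes the copper-carrying ferroxidase ceruloplasmin, stood at 0.12 ± 0.23, and Fbln5, an extracellular matrix gene, at -0.22 ± 0.46. Beside Aspg, the other 8 tested reactive genes held 1 called gene, Gfap, against 1.05% of all genes tested, and 3 with an unadjusted p under 0.05 (Gfap, Vim and Osmr), against 10.8% of all genes.

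Among the general markers, 3 of 21 rose with Foxp2 when both genotypes were averaged, and the first was Aqp4, the gene of the water channel on astrocyte endfeet (chromosome 18, 15389496 to 15410982, GRCm38, minus strand). Aqp4 was at 183, 230, 157 and 179 CPM in the Con+Foxp2 mice and 140, 103, 79.4 and 152 CPM in the Con+Con mice. It was at 233, 140, 128 and 196 CPM in the BACHD+Foxp2 mice and 129, 112, 81.9 and 85.6 CPM in the BACHD+Con mice. The control genotype showed no overlap, while in BACHD mice BACHD+Foxp2 mouse 3 and BACHD+Con mouse 1 lay in the opposite order. The averaged log2 fold change of Aqp4 was 0.72 ± 0.14 (SE, 1.64-fold; edgeR, adjusted p = 0.00986). Within genotypes it was 0.66 ± 0.20 (SE; adjusted p = 0.286) in control mice and 0.77 ± 0.20 (SE; adjusted p = 0.177) in BACHD mice, neither of which passed in edgeR.

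Slc1a3, which encodes the glutamate and aspartate transporter GLAST (chromosome 15, 8634124 to 8710764, minus strand), was the second. Its level was 626, 646, 561 and 646 CPM in the Con+Foxp2 mice and 509, 513, 437 and 477 CPM in the Con+Con mice. BACHD+Foxp2 mice had 549, 539, 580 and 517 CPM and BACHD+Con mice 461, 491, 454 and 437 CPM. No group overlapped its counterpart in either genotype, although the change was small, with an averaged log2 fold change of 0.30 ± 0.06 (SE, 1.23-fold; edgeR, adjusted p = 0.0137). Acsbg1, an acyl-CoA synthetase gene for very long chain fatty acids (chromosome 9, 54604877 to 54661870, minus strand), was the third, at 131, 136, 116 and 141 CPM in the Con+Foxp2 mice and 95.9, 91.0, 86.5 and 104 CPM in the Con+Con mice. It was at 117, 127, 93.2 and 132 CPM in the BACHD+Foxp2 mice and 97.3, 93.8, 89.3 and 85.9 CPM in the BACHD+Con mice, where BACHD+Foxp2 mouse 3 fell within the range of the control virus. The averaged log2 fold change of Acsbg1 was 0.41 ± 0.09 (SE, 1.33-fold; edgeR, adjusted p = 0.0161). The 3 libraries lowest in cortical markers (BACHD+Con mice 2 and 3 and Con+Con mouse 4) were also left out. The log2 fold changes of Slc1a3 and Acsbg1 were then as large, at 0.32 and 0.44. They no longer passed (edgeR, adjusted p = 0.0848 and 0.096), while Gfap and Aqp4 did, and the cause was not tested.

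Slc1a2 and Clu, the general markers of highest CPM before Slc1a3, were not called. Slc1a2, the main glutamate transporter gene of astrocytes, was at 6080, 6040, 6100 and 6350 CPM in the Con+Foxp2 mice and 5960, 7050, 5670 and 5970 CPM in the Con+Con mice. It was at 6210, 5400, 5780 and 5550 CPM in the BACHD+Foxp2 mice and 5610, 5140, 5330 and 5770 CPM in the BACHD+Con mice. Its averaged log2 fold change was 0.03 ± 0.05 (SE), with a 95% interval of -0.08 to 0.14. Clu was at 533, 624, 605 and 560 CPM in the Con+Foxp2 mice and 753, 612, 565 and 660 CPM in the Con+Con mice, and at 614, 516, 692 and 598 CPM in the BACHD+Foxp2 mice and 596, 870, 484 and 552 CPM in the BACHD+Con mice. All its groups overlapped, the highest mouse being BACHD+Con mouse 2, and the averaged log2 fold change of Clu was -0.10 ± 0.10 (SE; edgeR, adjusted p = 0.793). Thus the gene of one glutamate transporter, Slc1a3, rose, while the interval for the other, Slc1a2, held no rise above 0.14 on the log2 scale.

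The remaining general markers fell on both sides of 0 in the averaged comparison. Higher estimates with an unadjusted p under 0.05 were those of Fgfr3, a fibroblast growth factor receptor gene (log2 fold change 0.36 ± 0.11, SE), Dio2, the deiodinase gene that activates thyroid hormone (0.33 ± 0.11), Aldh1l1, a folate enzyme gene much used to mark astrocytes (0.33 ± 0.13), and Atp1b2, a subunit gene of the sodium pump (0.28 ± 0.10). None of them passed after adjustment, the lowest edgeR adjusted p being 0.163, for Fgfr3. Negative estimates included the bicarbonate cotransporter gene Slc4a4 (-0.15 ± 0.09, SE), Ndrg2 (-0.15 ± 0.08) and the gap junction genes Gja1 (-0.13 ± 0.12) and Gjb6 (-0.14 ± 0.21). The calcium-binding protein gene S100b stood at 0.20 ± 0.13, Aldoc at 0.06 ± 0.07, the amino acid transporter gene Slc7a10 at 0.05 ± 0.19 and the neurotensin receptor gene Ntsr2 at -0.01 ± 0.11. Mlc1, a membrane protein gene of astrocyte endfeet, stood at -0.01 ± 0.11, Glul at -0.02 ± 0.07, the glypican gene Gpc5 at -0.02 ± 0.20 and the transcription factor gene Sox9 at -0.03 ± 0.12. In all, 11 of the 21 general markers had positive and 10 had negative estimates.

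Counted together, 4 of the 30 tested members were called higher and 0 lower with Foxp2 averaged over genotypes, against 1.05% of all genes tested. DESeq2 and limma voom also called 4 each. Unadjusted p was under 0.05 in 10 members without Aspg, all higher, against 10.8% of all genes. The median log2 fold change was 0.26 over the 9 reactive genes, or 0.21 without Aspg, and 0.03 over the 21 general markers, beside -0.0027 over all 13563 genes. These medians depend on single libraries: with 1 left out, that of the 9 reactive genes ran from 0.16 (without Con+Con mouse 2) to 0.44 (without BACHD+Con mouse 2), and that of the general markers from 0.0025 (without Con+Con mouse 3) to 0.07 (without BACHD+Con mouse 2 or 4). Leaving out the 3 libraries with the least cortical marker RNA gave 0.64 over the reactive genes and 0.10 over the general markers. Only genes with enough reads enter those medians, and 5 reactive genes do not. Within a group the median coefficient of variation was larger for the 9 reactive genes, at 32.1% to 36.3% over the 4 groups. It was 11.2% to 16% for the general markers. Of the reactive genes, Cd44, Osmr, S1pr3, Fbln5 and Aspg had 117 to 641 reads each over all 16 libraries. Every general marker had 715 or more. Counting error is part of these coefficients, and its share was not tested.

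**Figure D2:**
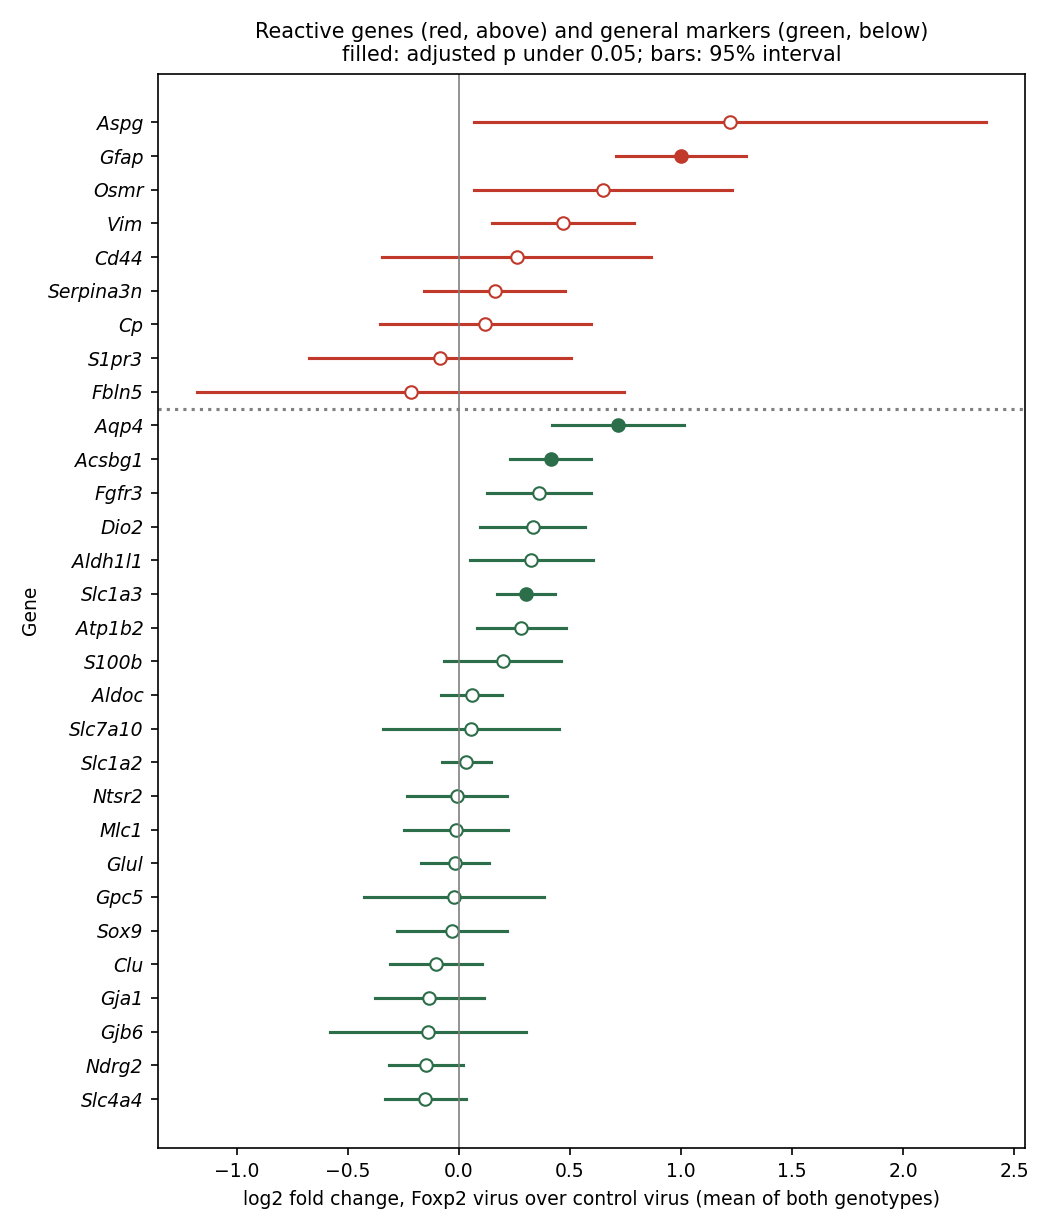
Log2 fold change of the 30 tested genes, Foxp2 virus over control virus averaged over genotypes (horizontal axis), with 95% intervals. Reactive genes are in red above the dotted line and general markers in green below it, and filled circles mark adjusted p under 0.05: Gfap at 1.00, Aqp4 at 0.72, Acsbg1 at 0.41 and Slc1a3 at 0.30.

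The promoters of 3 of the called genes and of the reactive genes Vim and Serpina3n are shown so that the sequence can be read beside the values of these members. They are RefSeq sequences on GRCm38.p6, from 250 bases before to 50 bases after a RefSeq transcript start, read 5′ to 3′ along the gene. That start need not be the outer end of the gene given above: for Gfap it is at 102897200, which lies 3712 bases inside the annotated gene, and for Vim at 13574311, which lies 384 bases inside. Capitals mark TTCNNNGAA, the core recognised by STAT factors, which act downstream of Osmr and are a known route to Gfap expression. The Gfap promoter lies at chr11:102897151-102897450 on the minus strand, that of Slc1a3 at chr15:8710758-8711057 (minus), that of Acsbg1 at chr9:54661836-54662135 (minus), that of Vim at chr2:13574061-13574360 (plus) and that of Serpina3n at chr12:104406458-104406757 (plus).
Gfap: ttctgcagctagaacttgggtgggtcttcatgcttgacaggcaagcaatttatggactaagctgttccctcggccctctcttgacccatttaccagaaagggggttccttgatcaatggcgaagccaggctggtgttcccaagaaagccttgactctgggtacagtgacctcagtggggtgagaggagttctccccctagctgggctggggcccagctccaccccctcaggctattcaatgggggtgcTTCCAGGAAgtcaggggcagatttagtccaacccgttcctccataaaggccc
Slc1a3: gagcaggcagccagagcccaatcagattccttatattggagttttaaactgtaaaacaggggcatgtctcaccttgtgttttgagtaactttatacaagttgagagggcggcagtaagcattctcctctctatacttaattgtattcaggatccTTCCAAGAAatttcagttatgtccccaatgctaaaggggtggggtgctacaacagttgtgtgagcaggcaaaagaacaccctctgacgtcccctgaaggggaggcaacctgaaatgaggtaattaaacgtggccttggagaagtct
Acsbg1: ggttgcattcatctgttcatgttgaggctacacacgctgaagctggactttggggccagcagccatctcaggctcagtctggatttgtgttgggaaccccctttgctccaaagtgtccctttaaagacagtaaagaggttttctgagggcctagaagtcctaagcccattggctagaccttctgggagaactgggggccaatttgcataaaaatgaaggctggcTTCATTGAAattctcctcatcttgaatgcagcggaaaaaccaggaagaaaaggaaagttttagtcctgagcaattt
Vim: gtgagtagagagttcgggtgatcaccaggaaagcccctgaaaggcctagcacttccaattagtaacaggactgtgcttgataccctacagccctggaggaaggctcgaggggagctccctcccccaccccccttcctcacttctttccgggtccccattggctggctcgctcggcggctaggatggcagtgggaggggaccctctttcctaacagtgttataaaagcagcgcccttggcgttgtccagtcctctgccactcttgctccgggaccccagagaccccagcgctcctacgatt
Serpina3n: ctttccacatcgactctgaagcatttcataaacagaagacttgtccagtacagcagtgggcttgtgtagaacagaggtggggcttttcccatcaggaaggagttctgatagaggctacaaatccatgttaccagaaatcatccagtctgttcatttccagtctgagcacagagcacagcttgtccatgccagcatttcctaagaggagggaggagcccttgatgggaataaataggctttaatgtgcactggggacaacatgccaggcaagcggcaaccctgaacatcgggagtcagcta

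Counted from these RefSeq starts, the STAT core began 2 bases before that of Gfap (TTCCAGGAA), 96 bases before that of Slc1a3 (TTCCAAGAA) and 26 bases before that of Acsbg1 (TTCATTGAA), and it was not in the windows of Vim and Serpina3n. The windows were also searched on both strands for TGANTCA (AP-1), TGTTTAC (forkhead factors such as Foxp2) and the NFI palindrome, and the 5 printed promoters held none of these. Over 32851 promoters in the RefSeq table, 8.3% held the STAT core, 7.81% the AP-1 letters, 3.65% the forkhead letters and 0.0365% the NFI palindrome. Some genes have several promoters there, and the members are counted by gene. Counted so, 2582 of 27025 genes held the STAT core, 2425 the AP-1 letters, 1095 the forkhead letters and 12 the NFI palindrome. Of the 30 members with a promoter in the table, the STAT core was found in 2 of 13 reactive genes (Gfap and Steap4) and 4 of 17 general markers (Acsbg1, Aldoc, Ntsr2 and Slc1a3). AP-1 letters were in Cp, Cxcl10, Osmr and Gja1, and forkhead letters in Aldoc and Ndrg2, which had averaged log2 fold changes of 0.06 and -0.15. These matches are letters in a short window and were not tested as binding sites.

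Within control mice no member was called in edgeR, against 0.229% of all genes tested. Unadjusted p was under 0.05 in 7 of the 30, all higher in Con+Foxp2, against 7.04% of all genes, and DESeq2 called 3 (Gfap, Dio2 and Slc1a3) and limma voom 1 (Dio2). Without overlap between the groups, 8 members lay higher in Con+Foxp2, Gfap and the 7 general markers Aqp4, Slc1a3, Aldoc, Aldh1l1, Acsbg1, Dio2 and Atp1b2, against 2.71% of all genes. None lay lower without overlap, against 2.29% of all genes. In the authors' deposited table for control mice 4 members had an adjusted p under 0.05, namely Gfap, Slc1a3 (0.0394), Acsbg1 (0.0478) and Dio2 (0.00597). The median log2 fold change in control mice was 0.20 over the reactive genes, or 0.10 without Aspg, and 0.13 over the general markers. With 1 library left out the reactive median ran from 0.0265 (without Con+Con mouse 2) to 0.37 (without Con+Con mouse 1), and the general median from 0.07 (without Con+Foxp2 mouse 1) to 0.15 (without Con+Con mouse 2).

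In BACHD mice Gfap was the 1 member called, against 0.243% of all genes, while 6 members had an unadjusted p under 0.05, all higher in BACHD+Foxp2, against 7.73% of all genes. DESeq2 added Aqp4, with an adjusted p of 0.0402, and the authors' deposited table for BACHD mice likewise has Gfap and Aqp4 under 0.05, Aqp4 at 0.038. Groups without overlap were those of Gfap and Slc1a3, higher in BACHD+Foxp2, against 1.78% of all genes, with none lower against 2.36%. The median log2 fold change in BACHD mice was 0.40 over the reactive genes, or 0.36 without Aspg, and 0.0077 over the general markers. With 1 library left out the reactive median ran from 0.31 (without BACHD+Foxp2 mouse 1) to 0.65 (without BACHD+Con mouse 2), and the general median from -0.02 (without BACHD+Foxp2 mouse 4) to 0.14 (without BACHD+Con mouse 2). Con+Foxp2 mice carried more Foxp2 RNA than BACHD+Foxp2 mice, and the part of that difference in these values cannot be told apart from genotype.

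Dio2, chosen after its values were seen, was the member with the lowest p for a difference between the genotypes. It was at 85.6, 81.8, 89.8 and 89.0 CPM in the Con+Foxp2 mice and 56.3, 63.7, 47.9 and 42.0 CPM in the Con+Con mice. It was at 53.0, 57.6, 43.4 and 46.6 CPM in the BACHD+Foxp2 mice and 60.5, 40.6, 52.4 and 55.1 CPM in the BACHD+Con mice. Every Con+Foxp2 mouse lay above every other mouse, while the remaining 3 groups overlapped each other. The log2 fold change of Dio2 with Foxp2 was 0.72 ± 0.16 (SE; edgeR, adjusted p = 0.0615) in control mice and -0.06 ± 0.16 (SE; adjusted p = 0.969) in BACHD mice. The difference between these, -0.78 ± 0.23 (SE), had an unadjusted p of 0.00243 and an adjusted p of 1.0 in edgeR. In the authors' deposited table for control mice Dio2 has a log2 fold change of 0.61.

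**Figure D3:**
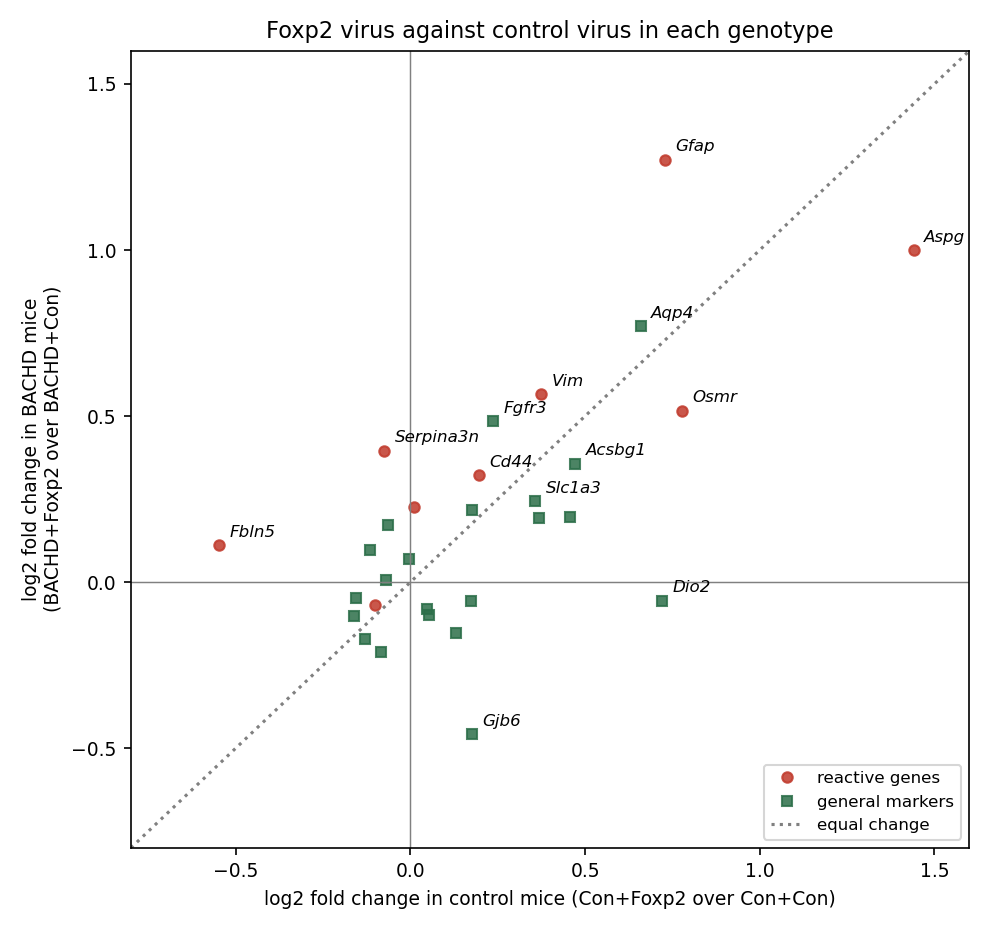
Log2 fold change with Foxp2 virus in control mice (horizontal axis) against that in BACHD mice (vertical axis) for the 30 tested genes, reactive genes as red circles and general markers as green squares, with a dotted line of equal change. Gfap lies above the line, at 0.73 and 1.27, and Dio2 below it, at 0.72 and -0.06; no interaction passed adjustment.

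The interaction of genotype and virus called 0 members, against 0% of all genes, in edgeR, and DESeq2 and limma voom also called 0. Dio2 was the 1 member with an unadjusted p under 0.05 there, against 3.8% of all genes. Under the control virus, BACHD+Con against Con+Con, edgeR, DESeq2 and limma voom called 0 members (0.0147% of all genes in edgeR), and 1 had an unadjusted p under 0.05, against 3.44% of all genes. That member was Slc1a2, at 5460 ± 281 CPM in BACHD+Con and 6160 ± 607 CPM in Con+Con mice (SD, n = 4 each), a log2 fold change of -0.17 ± 0.08 (SE; edgeR, unadjusted p = 0.0311, adjusted p = 1.0). Gfap had a log2 fold change of -0.31 ± 0.20 (SE, 95% interval -0.72 to 0.10) under the control virus, with the estimate on the side of lower Gfap in BACHD+Con. In the authors' deposited table for that comparison no member was under 0.05. This comparison and that of Foxp2 in BACHD mice share the BACHD+Con mice.

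Under the Foxp2 virus, BACHD+Foxp2 against Con+Foxp2, edgeR called 0 members, against 0.059% of all genes, and DESeq2 and limma voom called 1, Dio2. Its log2 fold change was -0.79 ± 0.16 (SE; edgeR, adjusted p = 0.0768), and the adjusted p was 0.00369 in DESeq2. An unadjusted p under 0.05 was found in 4 members, all lower in BACHD+Foxp2, against 4.18% of all genes. Beside Dio2 these were Glul (-0.29 ± 0.11, SE), Aldoc (-0.22 ± 0.09) and Mlc1 (-0.36 ± 0.16). In this comparison 18 of the 21 general markers had negative estimates with a median of -0.18. Of the 9 reactive genes 7 had positive estimates, and the median of the 9 was 0.23, or 0.27 without Aspg, beside 0.0091 over all genes. Under the control virus 17 of the 21 general markers likewise had negative estimates, with a median of -0.08. There 4 of the 9 reactive genes had positive estimates, and their median was -0.03, beside 0.0005 over all genes.

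A ratio within each library shows Gfap against another astrocyte gene. Per 100 CPM of Slc1a3, Gfap stood at 53.5, 83.3, 73.5 and 65.2 CPM in the Con+Foxp2 mice and 54.9, 48.4, 50.4 and 59.3 CPM in the Con+Con mice. The ratio was 98.7, 59.9, 92.8 and 117 in the BACHD+Foxp2 mice and 47.7, 61.6, 30.5 and 38.6 in the BACHD+Con mice. One mouse of each Foxp2 group, Con+Foxp2 mouse 1 and BACHD+Foxp2 mouse 2, lay within the range of the control virus, and the other 3 of each group lay above it. Slc1a3 was itself called higher with Foxp2, by 1.23-fold on average, which lowers this ratio in the Foxp2 mice. The overlap in the ratio is therefore not an overlap in Gfap, which showed none. Con+Foxp2 mouse 1 and BACHD+Foxp2 mouse 2 were also the lowest of their groups in Gfap and in Vim.

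The same pair stood apart in markers of oligodendrocytes. The 10 oligodendrocyte markers, all tested, summed to 4262 CPM in Con+Foxp2 mouse 1 and 2981 CPM in BACHD+Foxp2 mouse 2, the lowest of all 16 libraries. Their sums ranged from 4262 to 6718 CPM in Con+Foxp2 and 6218 to 9530 CPM in Con+Con, and from 2981 to 8296 CPM in BACHD+Foxp2 and 5197 to 7103 CPM in BACHD+Con. This pair of libraries was chosen after seeing the data. It held the lowest Gfap of each Foxp2 group, so leaving it out raises the Gfap estimate by itself. Without the pair the averaged log2 fold change of Gfap was 1.14 (edgeR, adjusted p = 6.11e-05). That of Acsbg1 was 0.40, near the 0.41 of all 16 libraries, and no longer passed (edgeR, adjusted p = 0.0691). Without the 3 libraries highest in choroid plexus and ependymal markers, Gfap stood at 1.12 and all 4 members were still called. Without the 3 lowest in cortical markers it stood at 1.07. BACHD+Con mouse 2, highest in choroid markers, was also the highest of its group in 15 of the 30 tested members, Gfap, Vim, Cd44 and Clu among them.

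**Figure D4:**
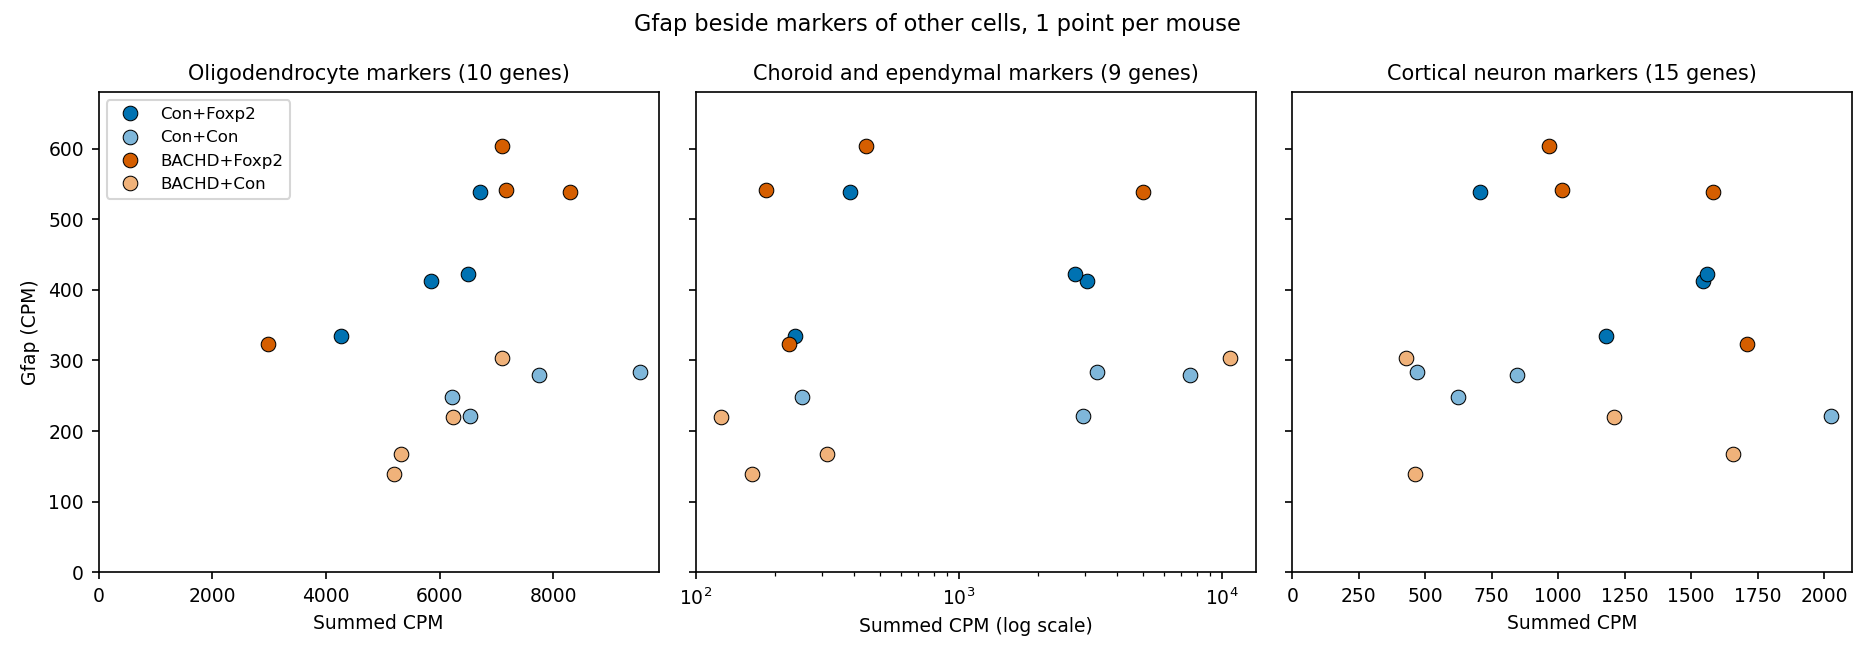
Gfap in CPM (vertical axis) against the summed CPM of oligodendrocyte, choroid plexus and ependymal (log axis), and cortical neuron markers, with 1 point per mouse coloured by group. The lowest Gfap in each Foxp2 group, 335 CPM in Con+Foxp2 and 323 CPM in BACHD+Foxp2, belongs to the mouse lowest in oligodendrocyte markers.

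Microglia, which react beside astrocytes, were followed with 15 markers, all tested. Their sum was 388 to 474 CPM in Con+Foxp2 and 340 to 390 CPM in Con+Con mice, and 379 to 451 CPM in BACHD+Foxp2 and 304 to 360 CPM in BACHD+Con mice. The groups overlapped narrowly in control mice and not in BACHD mice. In Con+Con mice the order of the mice in this sum was that of Gfap. In each Foxp2 group the same mouse was highest in both, though the full order differed. In BACHD+Con mice it was otherwise, since BACHD+Con mouse 2 was highest of its group in Gfap and lowest in this sum. A link between Gfap and this sum was not tested. Of the 15 markers 13 had positive estimates in the averaged comparison and 1 was called, against 1.05% of all genes, the lysosomal protease gene Ctss (log2 fold change 0.65, edgeR, adjusted p = 0.00335). Of 9 markers of infiltrating myeloid cells 3 were tested, and Lyz2, the lysozyme gene that activated microglia also express, rose by 2.13 on the log2 scale (edgeR, adjusted p = 0.00101). The other two tested, the macrophage genes Mrc1 and Cd163, had estimates of -0.76 and -0.94 that were not called, that of Cd163 at an unadjusted p under 0.05. Lyz2 averaged 14.9 ± 1.13 CPM in Con+Foxp2 and 4.90 ± 1.93 CPM in Con+Con mice, and 11.8 ± 7.0 CPM in BACHD+Foxp2 and 1.81 ± 1.1 CPM in BACHD+Con mice (SD, n = 4 each). Every Foxp2 mouse lay above the 3.32 CPM of the filter. Con+Con mouse 1 (2.66 CPM) and all BACHD+Con mice (1.72, 3.3, 0.672 and 1.54 CPM) lay below it. Lyz2 thus passed the filter only with the Foxp2 libraries, where it was higher, and its estimate is a description. The monocyte gene Ccr2 was at 0 in 14 of 16 libraries, and Ly6c2 and S100a8 at 0 in 13. Of the 12 markers of striatal projection neurons, 8 had an unadjusted p under 0.05 (edgeR), against 10.8% of all genes. All 12 had negative estimates, with a median of -0.38 and 0 called by edgeR, DESeq2 or limma voom. Their sum was 3336 to 4151 CPM in Con+Foxp2 and 3265 to 6788 CPM in Con+Con mice, and 3546 to 4964 CPM in BACHD+Foxp2 and 3775 to 6104 CPM in BACHD+Con mice. Of the 15 cortical markers 11 had positive estimates in the averaged comparison, 2 of them at an unadjusted p under 0.05. The 4 with negative estimates also held 2 at that level, and the median of the 15 was 0.55. The 1 cortical marker called was among the negative ones, Lamp5, which fell by 0.74 on the log2 scale (edgeR, adjusted p = 0.00998). None of the tested markers of oligodendrocytes (10), their precursors (6), endothelium (11), mural cells and fibroblasts (9) or choroid plexus and ependyma (9) was called by any of the 3 tools, with 1 of them, a precursor marker, at an unadjusted p under 0.05. The part of these other cells in the astrocyte values was not tested.

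Further astrocyte genes were counted in the averaged comparison, in which 1.05% of all genes were called. Of 27 more genes reported in reactive astrocytes 16 were tested and 1 was called, the class I histocompatibility gene H2-D1, at 22.2 ± 1.68 CPM in Con+Foxp2 and 10.7 ± 4.72 CPM in Con+Con mice (SD, n = 4 each). It was at 21.7 ± 5.77 CPM in BACHD+Foxp2 and 11.7 ± 2.17 CPM in BACHD+Con mice, and its averaged log2 fold change was 0.97 ± 0.21 (SE; edgeR, adjusted p = 0.0169). H2-D1 has near-identical relatives and is expressed by many cell types, so its value is uncertain. Of 40 further genes of resting astrocytes, all tested, 1 was called, the inward rectifier potassium channel gene Kcnj10, whose product Kir4.1 clears potassium. Kcnj10 averaged 415 ± 82.2 CPM in Con+Foxp2 and 261 ± 36.2 CPM in Con+Con mice, and 297 ± 32.7 CPM in BACHD+Foxp2 and 249 ± 21.1 CPM in BACHD+Con mice (SD, n = 4 each). Its averaged log2 fold change was 0.46 ± 0.09 (SE; edgeR, adjusted p = 0.00998), and it passed in control mice (0.67, adjusted p = 0.0251) and not in BACHD mice (0.25, adjusted p = 0.686), a difference whose interaction did not pass (adjusted p = 1.0).

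Upstream, none of 12 tested genes of the cytokine and STAT3 pathway was called in edgeR, DESeq2 or limma voom, with 1 at an unadjusted p under 0.05. None of 13 tested genes of the NF-κB, tumour necrosis factor and interleukin-1 pathways was called by any of these tools, again with 1 at an unadjusted p under 0.05. The 15 astrocyte transcription factor genes, among them Nfia, Sox2 and Hes5, likewise gave 0 calls by all 3 tools and 2 at an unadjusted p under 0.05. The median log2 fold changes of these lists in the averaged comparison were 0.05, -0.07 and 0.06. Over all genes in it, 1.05% were called in edgeR and 10.8% had an unadjusted p under 0.05.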

How the data were processed

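RNA of 16 striata, purified with a Qiagen RNeasy Lipid Tissue kit, was made into Clontech SMARTer libraries and sequenced on an Illumina HiSeq instrument, per the labels' protocols. STAR 2.4.0, DESeq2, HTSeq and the mm10 build are named, with no role or order, per the submitters' processing notes. The authors deposited whole-number read counts per gene, and 5 lines of reads not assigned to a gene (75.3% to 77.5% of listed reads) were left out. They also deposited tables of log2 fold changes and adjusted p-values, quoted only where named. The strand setting of the counting was not given in those sources.

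The test was edgeR's quasi-likelihood F test (edgeR 4.0.16, R 4.3.3) with TMM scaling, filterByExpr and 1 fit of 16 libraries (12 residual degrees of freedom), two-sided, with Benjamini-Hochberg adjustment over 13563 genes and a threshold of 0.05. SE is the log2 fold change divided by the root of F. CPM uses the scaled library sizes. The procedure was tested on simulated counts. The members and all gene lists were chosen with earlier results of these data known. Per-mouse values are given for Gfap, Vim and Serpina3n, for members called in any comparison, for the 3 members of each class with the lowest p in the averaged comparison and for the 3 general markers of highest CPM, and Dio2 was added after its values were seen. No further test was run over the lists. Alternatives used DESeq2 1.42.0, limma 3.58.1, other filters and fewer libraries. The 5 members Sox9, Atp1b2, Cd14, Aqp4 and Clu are not in the RefSeq promoter table. The promoter search of the members also left out chromosome 18, which holds Aqp4 and Cd14. Reads carry no molecular identifiers, so floors cover counting error only. The edgeR p-values judge a difference between groups against the spread between these mice, which is estimated partly from other genes.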

Additional observations from a re-analysis of the deposited data

How the results depend on the processing

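Gfap passed under all 24 alternatives of the averaged comparison (edgeR, DESeq2 or limma voom adjusted p 1.8e-09 to 0.0011) and all 17 in BACHD mice (4.19e-07 to 0.0271), and Aqp4 under all 24 of the averaged one (8.88e-05 to 0.0321). Slc1a3 passed under 23 of 24 and Acsbg1 under 22. The count of members called in control mice, 0, was 2 without the filter on low counts, 3 with DESeq2, 1 with limma voom and 1 with only the groups compared, and 0 to 0 with any replicate left out. In BACHD mice the count, 1, was 2 without the filter and 2 with DESeq2, and 1 to 1 with any replicate left out. Averaged over genotypes, 4 members became 2 without the libraries lowest in cortical markers and 4 to 5 with any replicate left out. For BACHD under the Foxp2 virus, 0 became 1 with DESeq2, limma voom, only the groups compared, or without the libraries lowest in cortical markers. Over all genes, the 31 called in control mice became 87 with DESeq2 and 75 without the filter, and the 33 in BACHD mice became 66 and 53, or 6 without the libraries lowest in cortical markers. The 143 of the averaged comparison became 249 with DESeq2 and 61 without those libraries, and the 0 of the interaction became 4 with DESeq2 and 3 without the filter. The causes were not tested.

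Estimates near 0 changed sign. In control mice Serpina3n, at -0.07, stood at 0.0045 without the 3 libraries highest in choroid markers and between -0.2439 and 0.0855 with a replicate left out. Slc1a2, at -0.0046, stood at 0.0009 with limma voom, 0.0010 with only the groups compared, 0.0046 without the pair lowest in oligodendrocyte markers and between -0.0398 and 0.0639 with a replicate left out. In BACHD mice Clu, at -0.05, stood at 0.0741 without the libraries lowest in cortical markers, 0.0841 without those highest in choroid markers, 0.0266 without the pair lowest in oligodendrocyte markers and between -0.1452 and 0.1523 with a replicate left out, and Dio2 between -0.1604 and 0.0262. Averaged over genotypes, Slc1a2 stood at -0.0034 without the libraries lowest in cortical markers and Clu at 0.0052 without those highest in choroid markers. The choroid and oligodendrocyte alternatives were chosen after seeing the data. Mice of the same number did not deviate together (median correlation -0.0094 over 24 pairs, 1 of 16 libraries best with its own number), and with the replicate number as a block the members called were 0, 1 and 4 for the virus in control mice, in BACHD mice and on average, as without it, and 0 in the other comparisons. The depth, with 3 reads at 0.819 to 1.16 CPM, limits the untested genes Lcn2, Timp1, Steap4, Cxcl10 and Cd14 and the tested gene Aspg most.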
